A study of Mus musculus with 24 samples.

Results

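The comparison described here sets lungs of unirradiated mice given Ly together with a kinase inhibitor against lungs of unirradiated mice given the kinase inhibitor alone. Its members are 8 of the 24 arrays of the series, chosen by their titles. On the first side are 2 Ly+Imatinib and 2 Ly+Su arrays, and on the second 2 Imatinib and 2 Su arrays. No array of these 8 is labelled as irradiated, and the kinase inhibitor was a term in the model. Each array is 1 lung RNA sample, labelled as a replicate of its group, and the labels give 24 days after irradiation as the time point of the series, for unirradiated lungs too. Besides the 8 arrays, 2 Ly and 2 untreated arrays (both unirradiated) and 8 irradiated (IR) arrays are used below for comparison: 2 IR+Ly+Imatinib and 2 IR+Ly+Su against 2 IR+Imatinib and 2 IR+Su. Ly and Su stand as abbreviations in the labels, which hold no strain, sex, age, dose or schedule.

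The title of the series sets the question, blocking TGF-beta and PDGF signals together against fibrosis of the irradiated lung. TGF-beta is a secreted factor that binds a pair of receptor kinases (Tgfbr2, which recruits Tgfbr1), and the receptors phosphorylate SMAD proteins that raise the transcription of matrix genes such as those of collagens and fibronectin. PDGF ligands act through the receptor tyrosine kinases Pdgfra and Pdgfrb, which are carried in the lung mainly by fibroblasts, smooth muscle and pericytes. Imatinib blocks the kinases ABL and KIT and the PDGF receptors. The comparison therefore asks what Ly adds in a lung that already receives a kinase inhibitor and has not been irradiated.

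The arrays lay on 6 slides of 4. The 4 arrays with Ly were all on slide 3 and the 4 arrays without Ly all on slide 2, so slide and Ly cannot be told apart in this comparison. On a slide, the position followed the kinase inhibitor and the replicate number in the same way on both slides. The 75th percentile of the signal was 1200 to 1386 on the arrays with Ly and 1192 to 1768 on the arrays without Ly, and 63.4% to 66.1% against 62.0% to 66.9% of spots were well above background. Across genes, replicates of a group correlated at 0.988 to 0.996 and arrays of different groups at 0.974 to 0.991. Lung markers were at high signal on all 8 arrays, for example Sftpc (surfactant protein C) at levels of 8.48 to 8.91 and Ager, of alveolar type I cells, at 4.93 to 5.30. A level is the log2 signal of a probe relative to the 75th percentile of its array.

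Of 17878 genes tested, 817 were higher and 93 lower with Ly (limma, adjusted p under 0.05), which is 5.09% of the genes in all, 4.57% higher and 0.52% lower. At an unadjusted p under 0.05 there were 2998. The share of higher calls was thus 89.8%, while it was 78.9% (666 higher, 178 lower) after quantile normalization and 75.2% (732 and 242) after scaling arrays to their median. With only genes well above background on every array there were 310 calls (266 higher, 44 lower, of 16114), and with normexp background correction 2, both higher (limma, 6533 at an unadjusted p under 0.05). The higher and lower calls differed in kind. With the genes divided by mean level into 5 equal groups, 647 of the rises were in the lowest group (levels of -7.44 to -3.26) and 3 in the upper 2 groups. The falls were spread over all 5 groups, at 25, 36, 14, 10 and 8 genes from the lowest to the highest. The 4 arrays with Ly lay all above the 4 without for 1151 genes (6.44%) and all below for 495 (2.77%). When the genes above the median level were fitted and adjusted by themselves, 0 of 8939 passed (limma, 1141 at an unadjusted p under 0.05). The calls in brighter genes described below therefore rest on the fit and adjustment over all genes. The plot of the difference against the level shows the rises fanning out over the dim genes and the falls running along all levels.

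**Figure D1:**
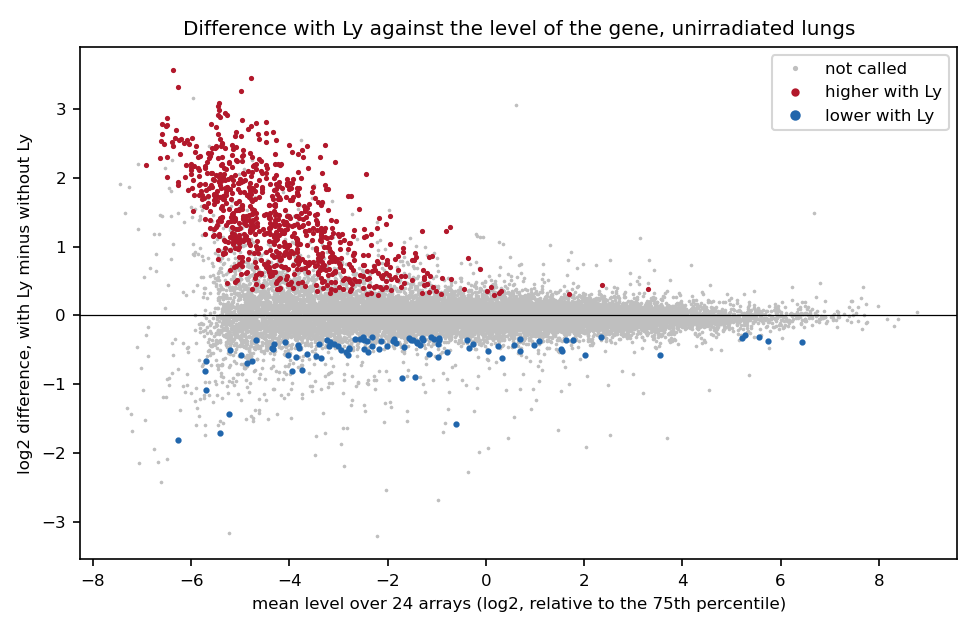
Log2 difference with Ly minus without Ly (y axis) against the mean level over 24 arrays (x axis, log2 relative to the 75th percentile) for the 17878 genes tested. The 817 genes called higher (red) lie mostly at low levels, and the 93 called lower (blue) lie at all levels.

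Chaperones were the group with the most falls among the gene lists. Cells use heat shock proteins to fold and rescue proteins in the cytosol, under the control of the factor HSF1, which binds heat shock elements, and use a separate set of chaperones in the endoplasmic reticulum, which are raised by unfolded proteins through the stress element of their promoters. Promoters of a called gene from each set are shown because these elements are written in them. They run from 250 bases before to 50 after the start of the gene (RefSeq, GRCm38.p6), on the gene's strand, with the matches in capitals. The Hspb1 promoter is chr5:135887669-135887968 on the plus strand, and its capitals mark GAANNTTC, the core of the heat shock element, which reads the same on both strands. The Hsp90b1 promoter is chr10:86705395-86705694 on the minus strand, and its capitals mark the endoplasmic reticulum stress element (CCAAT, then 9 bases of any kind, then CCACG) or its reverse complement.
Hspb1: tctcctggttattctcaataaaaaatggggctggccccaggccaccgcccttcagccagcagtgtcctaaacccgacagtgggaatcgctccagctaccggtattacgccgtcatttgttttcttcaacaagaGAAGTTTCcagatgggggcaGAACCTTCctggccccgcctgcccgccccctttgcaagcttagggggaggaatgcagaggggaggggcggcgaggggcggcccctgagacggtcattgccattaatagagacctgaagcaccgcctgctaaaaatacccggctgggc
Hsp90b1: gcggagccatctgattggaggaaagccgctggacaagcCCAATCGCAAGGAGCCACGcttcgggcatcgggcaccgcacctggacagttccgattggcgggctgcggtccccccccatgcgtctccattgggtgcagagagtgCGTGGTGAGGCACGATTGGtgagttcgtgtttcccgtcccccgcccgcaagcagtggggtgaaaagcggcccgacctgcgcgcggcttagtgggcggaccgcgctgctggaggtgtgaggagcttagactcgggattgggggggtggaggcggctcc
The Hspb1 promoter holds 2 matches of the first motif, which do not overlap, and the Hsp90b1 promoter 2 of the second. Of 32851 mouse promoters of the same length, 7.86% hold the first motif and 0.119% the second, on either strand. For Hspa4l the stretch scanned, chr3:40745363-40745662, holds neither set of letters. It lies inside the gene as annotated, which starts at 40744500, so that the sequence before that start was not scanned. A match is a description of the sequence and not evidence of binding.

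Hspb1, a small heat shock protein that binds unfolded proteins and actin, had levels of 3.14 and 3.23 in Ly+Imatinib and 3.29 and 3.15 in Ly+Su lungs, against 3.98 and 3.76 in Imatinib and 3.67 and 3.70 in Su lungs. The arrays with Ly all lay below those without. The log2 difference was -0.57 ± 0.08 (SE, 4 arrays a side; limma adjusted p = 0.00657), and the call held with each of the 8 arrays left out in turn, but not among the genes above the median level alone (adjusted p = 0.134). Hsp90aa1, the inducible cytosolic HSP90, had 5.52 and 5.56 in Ly+Imatinib and 5.53 and 5.52 in Ly+Su lungs, against 5.88 and 5.97 in Imatinib and 5.93 and 5.81 in Su lungs. It fell by 0.37 ± 0.06 on the log2 scale (limma adjusted p = 0.0134), with an adjusted p of 0.0631 without Su 1 and 0.0565 without Ly+Imatinib 1. Hspa4l, of the HSP110 family of nucleotide exchange factors, had 0.70 and 0.90 in Ly+Imatinib and 0.88 and 0.88 in Ly+Su lungs, against 1.14 and 1.44 in Imatinib and 1.30 and 1.20 in Su lungs. Here too the groups did not overlap. The difference was -0.43 ± 0.09 (limma adjusted p = 0.0363), a call that was lost with any 1 of the 8 arrays left out, with adjusted p up to 0.128. The other 3 Hspa4l probes lay at -0.43, -0.40 and -0.29. In the list of 23 tested cytosolic heat shock genes, these 3 fell, none rose and 20 did not pass, while 0.52% of all genes fell. The median was -0.15 against 0 over all genes, and 19 of 23 differences lay below 0. Lists of other function leaned low as well, such as NRF2 targets (21 of 25 below 0, median -0.13) and p53 targets (23 of 30, median -0.14). The cell cycle list leaned the other way, with 28 of 32 above 0. Hsph1 (-0.47, adjusted p = 0.0863), Stip1 (-0.37, adjusted p = 0.0993) and Hspe1 (-0.28, adjusted p = 0.0812) did not pass, and Dnajb1 (0.12) and Hspa1a (0.11) lay above 0. With arrays scaled to their median 7 of the 23 fell. Under that scaling 242 of all genes fell, against 93 as tested here, and the median over all genes was -0.081.

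In the endoplasmic reticulum, Hsp90b1 (the HSP90 of that compartment, also called GRP94) had levels of 5.25 and 5.31 in Ly+Imatinib and 5.49 and 5.56 in Ly+Su lungs, against 5.68 and 5.57 in Imatinib and 5.77 and 5.84 in Su lungs. The highest array with Ly lay just below the lowest array without. The difference was -0.31 ± 0.06 (limma adjusted p = 0.0302), not called with any of 7 of the 8 arrays left out in turn (adjusted p up to 0.132), and a second probe lay at -0.21. Of 24 tested genes of this list 1 fell, against 0.52% of all genes, none rose and 23 did not pass. The median was -0.18 against 0 over all genes. Calr, the calcium-binding chaperone calreticulin, lay at -0.45 ± 0.11 (adjusted p = 0.0697) and Sdf2l1 at -0.36 ± 0.08 (adjusted p = 0.0539), while Hspa5, the main chaperone of the compartment, lay at -0.22 (adjusted p = 0.185). The mean level of the list was 1.83 to 1.91 on the 4 arrays with Ly, against 1.94 to 2.09 on the 4 without. With arrays scaled to their median 4 of the 24 fell, a scaling that also raised the falls over all genes from 93 to 242.

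**Figure D2:**
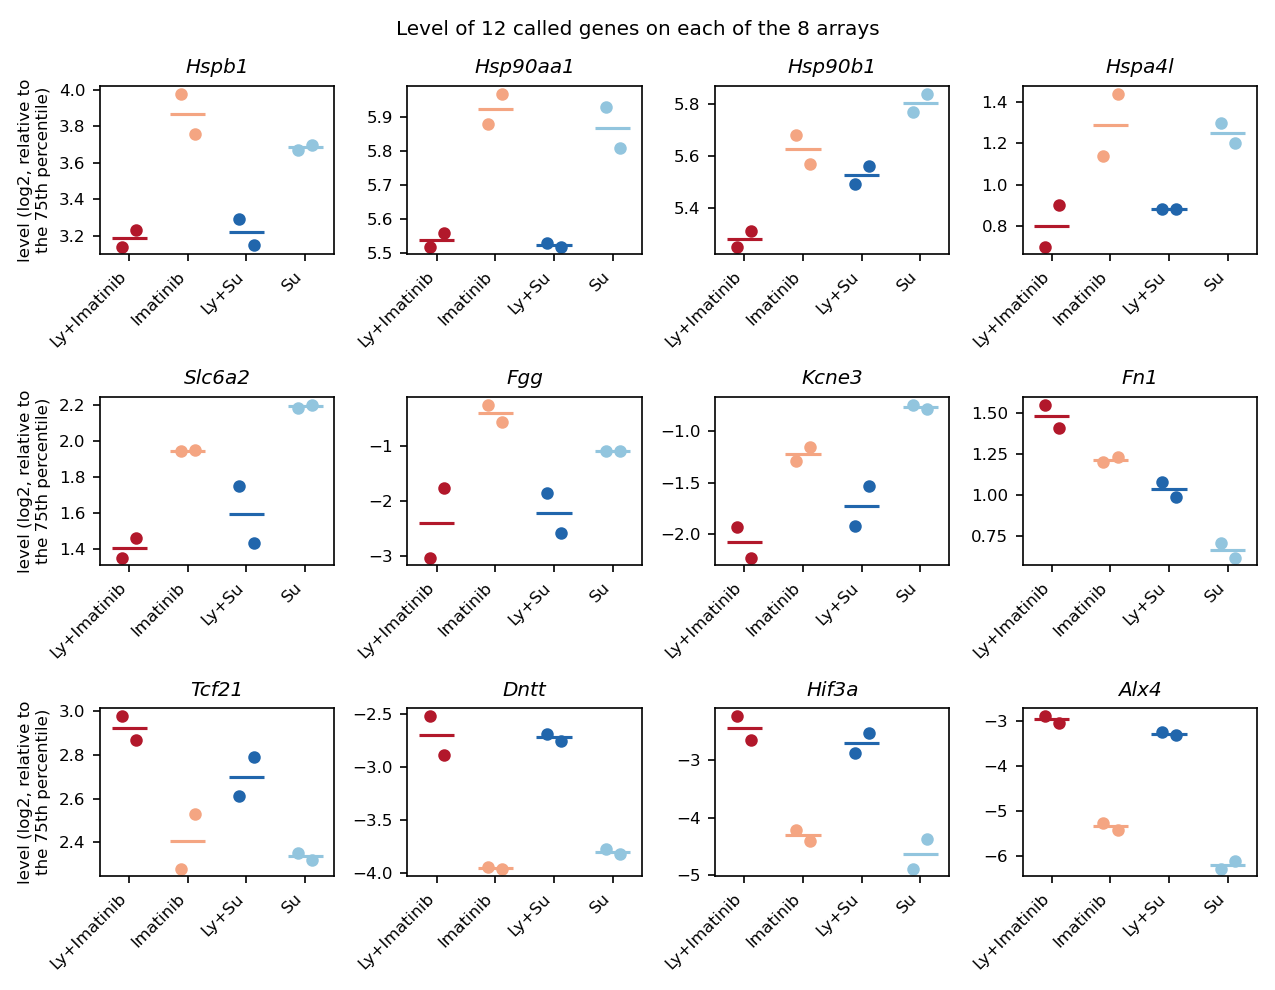
Level (log2 relative to the 75th percentile of the array) of 12 called genes on each of the 8 arrays, with a point for each array and a line for the mean of the 2 arrays of a group. Hspb1, Hsp90aa1, Hsp90b1, Hspa4l, Slc6a2, Fgg and Kcne3 are lower in Ly+Imatinib than in Imatinib and in Ly+Su than in Su lungs, and Fn1, Tcf21, Dntt, Hif3a and Alx4 are higher.

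Other falls were in genes of varied function. Fgg, the gamma chain of fibrinogen, had levels of -3.03 and -1.76 in Ly+Imatinib and -1.85 and -2.59 in Ly+Su lungs, against -0.24 and -0.55 in Imatinib and -1.08 and -1.08 in Su lungs. The groups did not overlap, the difference was -1.57 ± 0.33 (limma adjusted p = 0.037), and the call was lost without Imatinib 1, Imatinib 2, Su 1, Su 2 or Ly+Su 2 (adjusted p up to 0.128). The probes of the other fibrinogen chains, Fga and Fgb, were not well above background on any of the 8 arrays. Kcne3, a regulatory subunit of epithelial potassium channels, had -1.93 and -2.23 in Ly+Imatinib and -1.92 and -1.53 in Ly+Su lungs, against -1.29 and -1.15 in Imatinib and -0.74 and -0.78 in Su lungs. It fell by 0.92 ± 0.11 on the log2 scale (limma adjusted p = 0.00255), and a second probe lay at -1.0 without passing (adjusted p = 0.0883). Ghrl, which encodes the peptide hormone ghrelin, had -2.11 and -1.91 in Ly+Imatinib and -1.62 and -1.18 in Ly+Su lungs, against -1.15 and -0.73 in Imatinib and -0.69 and -0.65 in Su lungs. Its difference was -0.90 ± 0.14 (limma adjusted p = 0.0112), and a second probe of the gene also fell, by 0.91. Slc6a2, the noradrenaline transporter of nerve endings and lung endothelium, had 1.35 and 1.46 in Ly+Imatinib and 1.75 and 1.43 in Ly+Su lungs, against 1.94 and 1.95 in Imatinib and 2.18 and 2.20 in Su lungs. The difference was -0.57 ± 0.08 (limma adjusted p = 0.00662). The call held with each of the 8 arrays left out, but not in the fit over all 24 arrays (adjusted p = 0.13) nor among the genes above the median level alone (adjusted p = 0.134). Nmrk2, a nicotinamide riboside kinase that makes NAD precursors, lay at -1.71 ± 0.20 (adjusted p = 0.002), with only 1 of the 4 arrays with Ly well above background against 4 of 4 without. The lowest differences also included Extl1 (-0.81), an exostosin-like glycosyltransferase, Rimkla (-0.59), which makes the peptide N-acetylaspartylglutamate, and Sdsl (-0.57), a relative of serine dehydratase. Ly6g6e (-0.55), Obsl1 (-0.53), a cytoskeletal adaptor, and Slc7a3 (-0.53) fell as well, and of the 6 all but Slc7a3 lost the call in 6 or 7 of the 8 fits with an array left out. For Obsl1 the other 2 probes lay at 0.56 and 0.00, and for Slc7a3, a transporter of cationic amino acids, 7 of the 8 such fits kept the call.

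Of the interferon response genes, 1 of 34 fell: Ifit1, an RNA-binding antiviral protein, at -0.32 ± 0.07 (limma adjusted p = 0.0418). It had levels of -1.54 and -1.55 in Ly+Imatinib and -1.22 and -1.12 in Ly+Su lungs, against -1.08 and -1.26 in Imatinib and -0.90 and -0.90 in Su lungs, so that the sides overlap although each kinase inhibitor pair does not. Of the complement and coagulation genes 2 of 32 fell, Fgg and Procr, the endothelial receptor of protein C, which lay at -0.43 ± 0.08 (limma adjusted p = 0.0217). The list's median was -0.02, near that of all genes, of which 0.52% fell. Each of these calls was lost with some arrays left out: Ifit1 kept it in 1 of 8 such fits and Procr in 2 of 8.

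Several genes of motile cilia were among the falls, chosen here after their values were seen. Dnah2, a heavy chain of axonemal dynein, lay at -0.52 ± 0.09 (limma adjusted p = 0.0176), and Lrrc6, which helps to assemble dynein arms, at -0.51 ± 0.08 (adjusted p = 0.0102). Cfap65 (-0.48), Cfap74 (-0.47), Cfap43 (-0.45) and Cfap70 (-0.36), of the cilia and flagella associated proteins, and Ttll6 (-0.41), a ligase that adds glutamate chains to tubulin, also fell. Of 37 tested genes with Cfap or Dnah symbols 5 fell, none rose, and 33 lay below 0, with a median of -0.26. Over all genes 0.52% fell and the median was 0. In the separate list of ciliated cell markers none of 22 genes passed, yet all 22 lay at or below 0, with a median of -0.27 and a lowest value of -0.47 (Dnali1). Foxj1, the factor that switches on the cilium programme, lay at -0.39 ± 0.12 (adjusted p = 0.163). The mean level of this list was 1.61 and 1.76 on the Ly+Imatinib arrays and 1.88 and 2.01 on the Ly+Su arrays, against 1.90 and 2.23 on the Imatinib arrays and 2.12 and 2.10 on the Su arrays. In bulk lung RNA, fewer cells of a type and less RNA per cell cannot be told apart. In the comparison of Ly with untreated lungs, made within slide 1, the median was -0.33 for the ciliated list and -0.25 for the Cfap and Dnah genes, against -0.03 over all genes. In irradiated lungs, Ly on top of a kinase inhibitor gave medians of -0.07 and -0.06. Genes of club and goblet cells, the secretory cells of the same airway lining, lay low as well: none of 15 passed, 14 lay below 0, and the median was -0.15 (-0.55 for Ly alone and -0.04 in irradiated lungs). Their mean level was 1.90 and 3.13 on the Ly+Imatinib arrays and 3.61 and 2.87 on the Ly+Su arrays, against 3.90 and 4.31 on the Imatinib arrays and 3.02 and 3.04 on the Su arrays. The part of airway cells in the falls of cilium genes was not tested.

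The genes of the signalling pathways named in the title moved little. Of 21 tested TGF-beta ligands, receptors and activators none passed in limma, the differences lying between -0.12 and 0.47 around a median of 0.08. Tgfb1 lay at 0.12 ± 0.11, Tgfbr1 at 0.18 ± 0.07 and Tgfbr2 at 0.08 ± 0.07, and the highest, the co-receptor Tgfbr3, at 0.47 ± 0.11 (adjusted p = 0.051). Of 34 TGF-beta response genes 1 rose and 33 did not pass, with a median of -0.01, while 4.57% of all genes rose. The one that rose was Fn1, which encodes the matrix protein fibronectin. It had levels of 1.55 and 1.41 in Ly+Imatinib and 1.08 and 0.99 in Ly+Su lungs, against 1.20 and 1.23 in Imatinib and 0.71 and 0.62 in Su lungs. Both pairs were separated, but the Ly+Su arrays lay below the Imatinib arrays. The difference was 0.31 ± 0.07 (limma adjusted p = 0.0409), a call lost with any 1 of the 8 arrays left out (adjusted p up to 0.167), and its 2 other probes lay at 0.51 and 0.48 without passing. Ccn2, an early target of TGF-beta, had 4.08 and 4.22 in Ly+Imatinib and 3.98 and 4.31 in Ly+Su lungs, against 4.54 and 4.62 in Imatinib and 4.34 and 4.32 in Su lungs. The sides did not overlap, and the difference of -0.31 ± 0.10 did not pass (adjusted p = 0.159; 0.0295 without Ly+Su 2). Smad7, the inhibitory SMAD, lay at -0.02 ± 0.14.

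Of the 35 genes of fibrillar collagens and matrix Fn1 was again the one that passed, and the list's median was 0.01. Col1a1 had levels of 3.09 and 3.47 in Ly+Imatinib and 3.25 and 3.6 in Ly+Su lungs, against 3.56 and 3.34 in Imatinib and 3.29 and 3.23 in Su lungs, and its difference was -0.00 ± 0.13. The arrays with and without Ly overlapped. The probes of Col1a2 and Dcn, genes of fibroblast matrix, were not well above background on any of the 8 arrays. Col3a1 lay at -0.08 ± 0.12, Acta2, the smooth muscle actin of myofibroblasts, at -0.06 ± 0.20, and Spp1 at 0.01 ± 0.11. None of 29 genes of matrix cross-linking and turnover and none of 20 of the basement membrane passed, with medians of -0.07 and 0.04. Of the 31 BMP and activin genes 1 rose, while 4.57% of all genes did, and the list's median was 0.06. The gene was Nog, which encodes the BMP antagonist noggin, at 1.84 ± 0.22 (limma adjusted p = 0.00253). Its probe was well above background on 4 of 4 arrays with Ly and 2 of 4 without.

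Among 14 genes of the PDGF family and of kinases that imatinib blocks none passed in limma, the differences lying between -0.20 and 0.45 around a median of 0.14. Pdgfb had levels of 0.62 and 0.64 in Ly+Imatinib and 0.20 and -0.18 in Ly+Su lungs, against -0.14 and 0.42 in Imatinib and -0.44 and -0.39 in Su lungs. The sides overlapped, and the difference was 0.45 ± 0.14 (adjusted p = 0.144). Pdgfrb lay at 0.13 ± 0.06 with the 4 arrays with Ly (3.83 to 3.91) all above the 4 without (3.67 to 3.79), and did not pass (adjusted p = 0.309). Pdgfra lay at 0.25 ± 0.15 on the probe tested, and a second, dimmer probe was called higher by 0.75 (adjusted p = 0.00423 among all probes). Pdgfa lay at 0.07 ± 0.06, Kit at 0.06 ± 0.08 and Csf1r at 0.31 ± 0.16. Cyp1a1, a target of the aryl hydrocarbon receptor, lay at -0.28 ± 0.32.

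Few rises were in genes of moderate or high signal. Tcf21, a transcription factor of lung mesenchyme, had 2.98 and 2.87 in Ly+Imatinib and 2.61 and 2.79 in Ly+Su lungs, against 2.28 and 2.53 in Imatinib and 2.35 and 2.32 in Su lungs. The sides did not overlap, and the gene rose by 0.44 ± 0.09 (limma adjusted p = 0.0289), with the call kept in 2 of 8 fits with an array left out and lost when arrays were scaled to their median (adjusted p = 0.0746). It was the one gene called among 23 fibroblast and pericyte genes, whose median was 0.18 with 20 of 23 above 0. Over all genes 4.57% rose. The other rise in the upper 2 groups of level, besides Tcf21 and Fn1, was Plpp1, a phosphatase of lipid phosphates, at 0.38 ± 0.08 (limma adjusted p = 0.0468).

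The bulk of the rises came from dim probes. The 12 highest differences among genes well above background on at least 1 array of each side were in Eya4 (3.26), 1600012P17Rik (2.99), F9 (2.82), Olfr1344 (2.66), Alx4 (2.64), Psors1c2 (2.61), Spem2 (2.60), Vmn1r195 (2.48), 2900052N01Rik (2.48), 4930456L15Rik (2.46), 1700116B05Rik (2.41) and Tlx2 (2.38). All 12 were above background on the 4 arrays with Ly. Of the 4 without, it was 1 array for Eya4, 1600012P17Rik, F9, Olfr1344, Psors1c2 and Spem2, 2 for Alx4 and Tlx2, 3 for Vmn1r195 and 4930456L15Rik, and 4 for 2900052N01Rik and 1700116B05Rik, so that most of these sizes rest in part on signal not above background. Eya4, Alx4 and Tlx2 are regulators of transcription in development, F9 is the liver's clotting factor IX, Olfr1344 an olfactory and Vmn1r195 a vomeronasal receptor. Alx4 had levels of -2.88 and -3.04 in Ly+Imatinib and -3.24 and -3.32 in Ly+Su lungs, against -5.25 and -5.42 in Imatinib and -6.27 and -6.11 in Su lungs (2.64 ± 0.13; limma adjusted p = 8.58e-05). The gap was several times the spread within a side. Of these 12 genes, 10 kept the call whichever array was left out, while Eya4 kept it in 4 of 8 such fits and 1600012P17Rik in 2 of 8. Of the 563 genes with a symbol that rose, did not overlap and agreed in sign for Imatinib and Su, 150 were not well above background on any array without Ly, so that only a lower bound of the fold can be given. The bounds ran up to at least 5.395-fold higher with Ly, for Olfr1226, with Terc (the RNA of telomerase) at least 4.156-fold higher.

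Receptors of smell, vomeronasal sense and taste, a family chosen after its values were seen, made up 84 of the rises. Of 137 such genes tested 84 rose and 1 fell, against 4.57% and 0.52% of all genes, and 126 of the 137 lay in the lowest of the 5 groups of level, where 18.1% of all genes rose. Their median difference was 1.54. A gene was tested when well above background in any 1 group, so that dim genes could enter through the arrays with Ly alone. Of all 817 rises, 218 were not well above background on any of the 4 arrays without Ly. The share of 84 of 137 is therefore conditioned on that filter. Of the 124 Olfr genes 76 rose, of the 10 Vmn genes 5, and of the 3 taste receptor genes 3. In the lower left area of the array, described with the place of the spots, 2 of 23 such genes rose, against 80 of 112 in the rest.

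Among the immune lists, the genes called higher were few and dim. Dntt, the polymerase that adds untemplated bases in developing lymphocytes, had levels of -2.52 and -2.89 in Ly+Imatinib and -2.69 and -2.76 in Ly+Su lungs, against -3.95 and -3.96 in Imatinib and -3.78 and -3.82 in Su lungs (1.17 ± 0.09; limma adjusted p = 0.000327). The groups were well separated. Cd4, the T cell co-receptor, rose by 1.26 ± 0.12 (limma adjusted p = 0.000746), with 1 of 4 arrays without Ly well above background. It was the 1 call among 30 T and NK cell genes, of which 28 lay above 0. Their median was 0.32 (0.33 with Ly alone and -0.06 in irradiated lungs). Pax5, the B cell factor, rose by 0.74 ± 0.16 (limma adjusted p = 0.0404), and did not pass after quantile normalization (limma adjusted p = 0.0932). It was the 1 call among 24 B and plasma cell genes, of which 23 lay above 0. Their median was 0.31 (0.46 with Ly alone and 0.03 in irradiated lungs). Both counts of calls, 1 of 30 and 1 of 24, are near the 4.57% of all genes that rose. For Pax5 the Ly+Su arrays (-3.38 and -3.99) lay below the Imatinib arrays (-2.29 and -2.32). Aire (1.00), the thymic regulator, rose in the list of 7 thymocyte and lymph node genes with Dntt, and Flt3 (0.81) and Ccr9 (0.68) in the list of 14 dendritic cell genes. Of all genes 4.57% rose, and of those in the lowest group of level 18.1%. Aire was well above background on 1 of 4 arrays without Ly and Flt3 on 2 of 4. After quantile normalization Aire and Ccr9 did not pass (limma adjusted p = 0.0609 and 0.0543). Flt3 lay at 0.88 with Ly alone, where it did not pass. The Rag2, Ptcra and Themis probes of the thymocyte list were not well above background on any of the 8 arrays.

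Other lists held a single rise or a pair. Tat and Hif3a rose among 23 glucocorticoid response genes (median -0.01). Over all genes 4.57% rose, and in the lowest group of level 18.1%. Tat, tyrosine aminotransferase, had -2.68 and -2.18 in Ly+Imatinib and -3.01 and -2.95 in Ly+Su lungs, against -4.01 and -4.14 in Imatinib and -3.89 and -4.09 in Su lungs (1.33 ± 0.16; limma adjusted p = 0.00286). Hif3a, a hypoxia-inducible factor subunit, had -2.22 and -2.64 in Ly+Imatinib and -2.87 and -2.53 in Ly+Su lungs, against -4.21 and -4.40 in Imatinib and -4.88 and -4.37 in Su lungs (1.90 ± 0.15; limma adjusted p = 0.000309). Neither gene's sides overlapped. Sox10, a factor of Schwann cells, rose by 1.39 ± 0.09 among 11 neural genes (limma adjusted p = 0.000155). Of these 11 genes 6 lay above 0 and 5 below, with a median of 0.02. The cardiac peptide gene Nppb was at least 2.941-fold higher (limma adjusted p = 0.000434) and Fosl1, a subunit of AP-1, at least 1.575-fold (adjusted p = 0.00265), since none of the 4 arrays without Ly was well above background for these. A second Nppb probe lay at 0.70 without passing (limma adjusted p = 0.48). Nppb was the 1 call among 15 cardiac muscle genes, of which 13 lay below 0, with a median of -1.09. Fosl1 was the 1 call among 26 immediate early genes, whose median was 0.05.

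In all, 948 genes of the 50 lists were tested, of which 15 rose (1.58%) and 7 fell (0.738%), against 4.57% and 0.52% of all genes, and 33 lists had no call. Leaving out the sex-linked genes (2 tested, 0 called), the medians of the 32 lists with no call ran from -0.48, for neutrophil genes, to 0.81, for platelet and megakaryocyte genes, and 27 of them lay within 0.20 of 0. With arrays scaled to their median, quantile-normalized or fitted over all 24 arrays, 14 list medians within 0.10 of 0 changed sign. With normexp background correction 13 of the 50 changed sign. It gave 0.58 for skeletal muscle (-0.10 as tested here), 0.30 for lymphatic vessels (-0.08), 0.51 for inflammatory cytokines and chemokines (0.03), 0.78 for neural and neuroendocrine genes (0.02) and -0.55 for cardiac muscle (-1.09). The mean level of the 11 platelet genes was 1.75, 1.42, 2.13 and 0.19 on arrays Ly+Imatinib 1, Ly+Imatinib 2, Ly+Su 1 and Ly+Su 2, against 0.68, 0.35, 0.57 and 0.59 on Imatinib 1, Imatinib 2, Su 1 and Su 2. All but Ly+Su 2 lay above the arrays without Ly. The 15 neutrophil genes averaged -1.48, -0.96, -0.69 and -1.30 on the arrays with Ly in the same order, against -1.09, 0.86, -1.02 and -0.98 without, with Imatinib 2 standing above the other 7. The 15 cardiac muscle genes, which mark heart tissue and the muscle sleeves of pulmonary veins, had a median of -1.09, with mean levels of -2.34, -0.47, -0.69 and 0.76 with Ly, against -0.51, 0.39, 0.35 and 0.42 without. Ly+Imatinib 1 was lowest and Ly+Su 2 highest of the 8. What these shifts in cell type markers contribute to the calls was not tested.

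**Figure D3:**
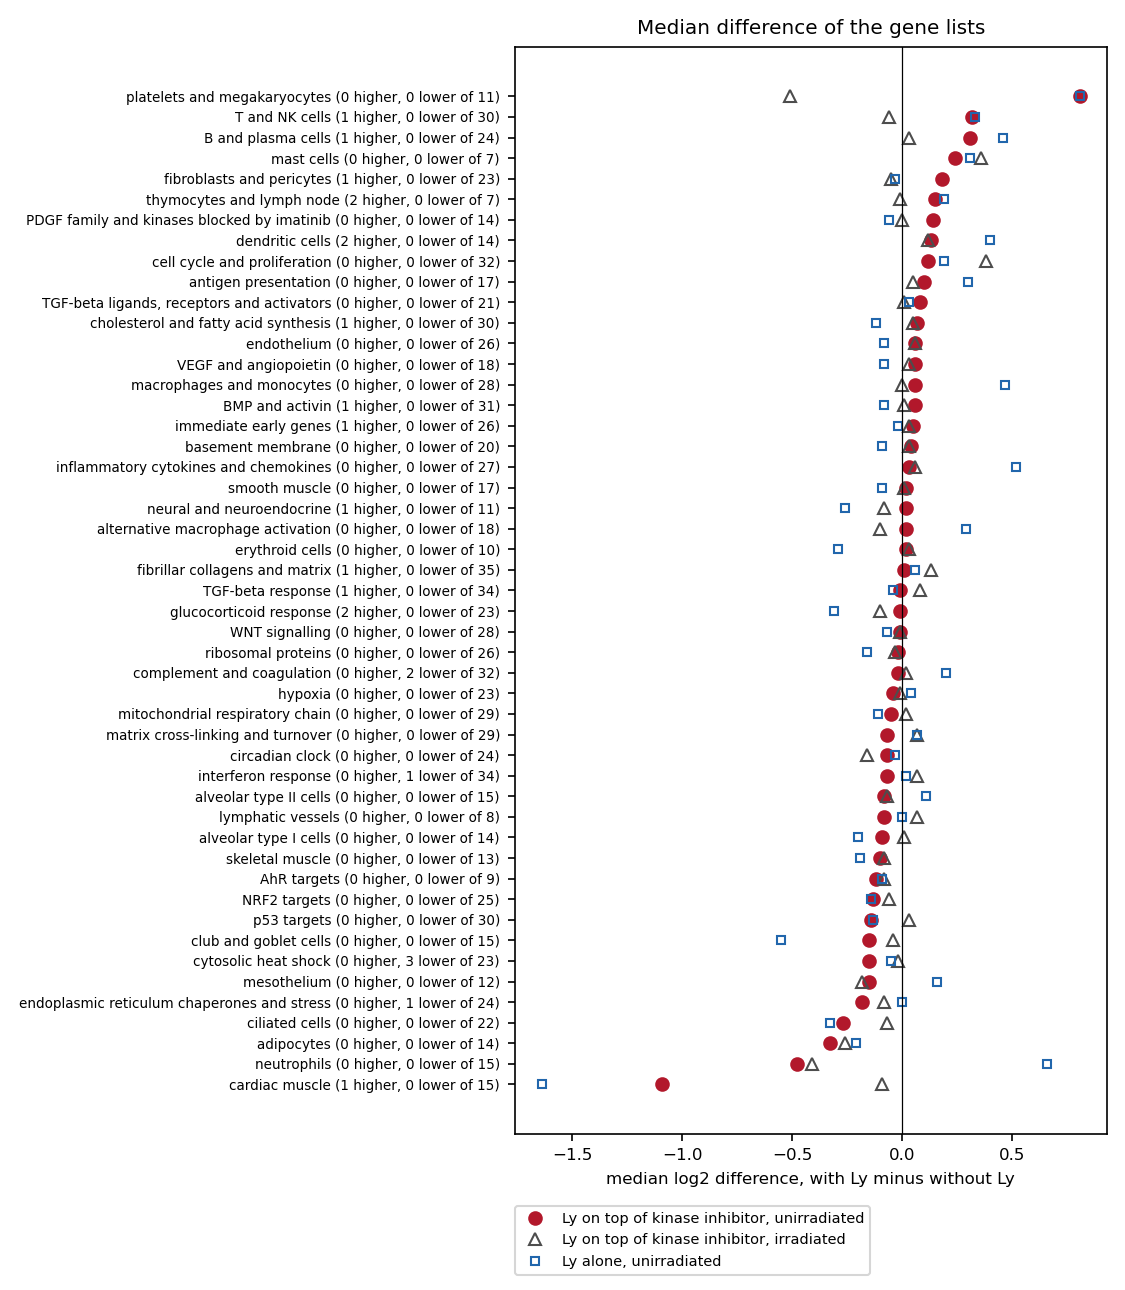
Median log2 difference with Ly minus without Ly (x axis) of 49 gene lists (y axis, with the number of genes called higher and lower of those tested in the unirradiated lungs) for Ly on top of a kinase inhibitor in unirradiated lungs (filled circles), the same in irradiated lungs (triangles) and Ly alone (squares). Most filled circles lie within 0.20 of 0. The platelet list lies at 0.81 and the cardiac muscle list at -1.09.

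The place of a spot on the array moved with the rises. In an area of the array chosen after the values were seen (rows 341 to 532, columns 1 to 65 of 85), 28 of 4684 genes rose (0.598%) and 32 fell (0.683%). In the rest of the array 781 of 13043 rose (5.99%) and 61 fell (0.468%). In the lowest of the 5 groups of level, 21 of 876 genes rose in the area (2.4%) and 620 of 2677 in the rest (23.2%). All 12 genes with the highest differences, Fosl1, Nppb, Dntt, Tat, Hif3a, Sox10 and Nog lay in the rest. Hspb1, Hsp90aa1, Hsp90b1, Slc6a2 and Kcne3 lay there as well, whereas Fgg and the tested Hspa4l probe lay in the area. For 245 probes that each occupy 10 spots, copies of the same sequence can be compared. The 72 of these with a level under -4 had a mean difference of 0.382 ± 0.568 (SD over probes) on their spots in the rest and 0.095 ± 0.402 on their spots in the area, with 50 of 72 higher in the rest. For the 109 with a level above -1 the means were 0.002 and 0.009.

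The same contrast by place was visible array by array. The share of genes of the lowest group of level that lay over 1 log2 unit above their own mean of the 24 arrays was, in the rest of the array, 11.1% and 7.02% on the Ly+Imatinib and 5.98% and 7.40% on the Ly+Su arrays, against 2.17% and 3.70% on the Imatinib and 3.1% and 3.85% on the Su arrays. In the area it was 1.83% and 1.14% on the Ly+Imatinib and 1.37% and 3.31% on the Ly+Su arrays, against 1.71% and 2.40% on the Imatinib and 2.05% and 3.65% on the Su arrays. So the arrays with Ly all exceeded those without in the rest of the array, and overlapped them in the area. The files had been detrended over the array by the Feature Extraction software. Of the 263 genes with at least 2 probes of which 1 rose, 12 had all their probes risen. The 817 risen genes were picked for their difference on these same arrays, so that the gap between the sides adds no evidence. Their median levels were -3.59 to -3.91 on the 4 arrays with Ly, against -4.89 to -5.22 on the 4 without. On the Ly and untreated arrays of slide 1, which did not enter that choice, they were -4.13 to -4.55. How far place, slide and Ly each contribute to the rises cannot be told apart here.

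**Figure D4:**
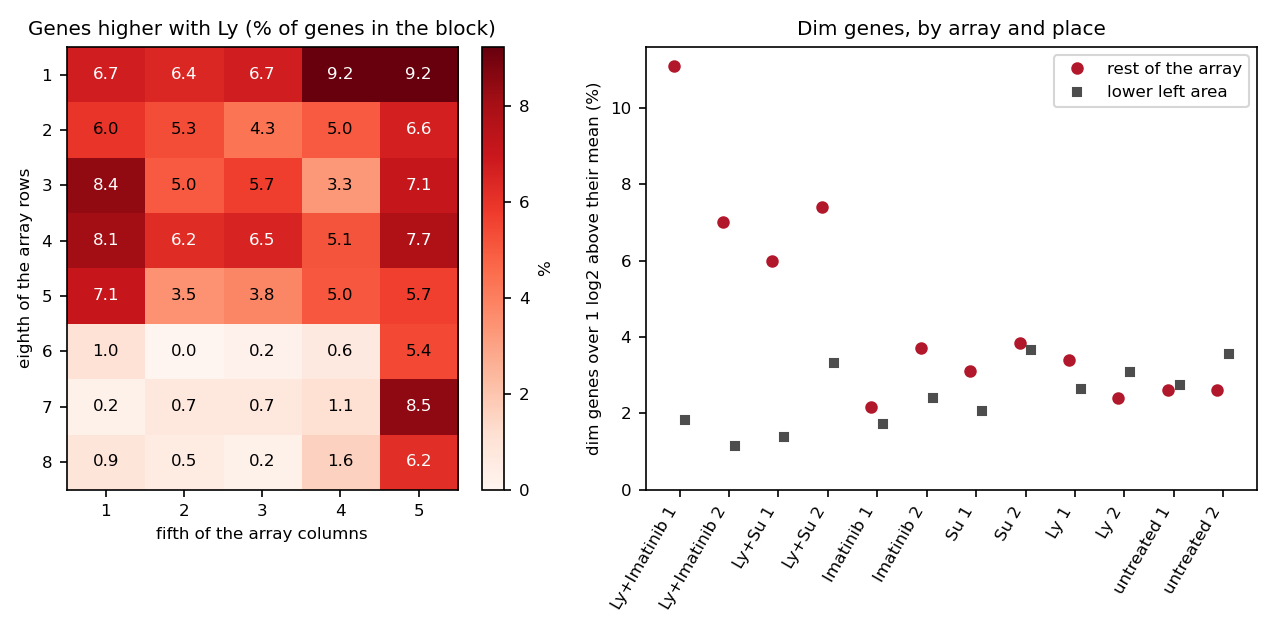
Left, percent of tested genes called higher with Ly in blocks of the array (5 blocks of columns on the x axis, 8 blocks of rows on the y axis, probes with a single spot). Right, percent of the genes of the lowest group of level lying over 1 log2 unit above their mean of 24 arrays (y axis) on each unirradiated array (x axis), for spots in the rest of the array (circles) and in the lower left area (squares). The lower left blocks hold few rises. Among the unirradiated arrays shown, the 4 with Ly and a kinase inhibitor stand out in the rest of the array.

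The difference with Ly was also compared between the kinase inhibitors. The Ly+Imatinib minus Imatinib difference gave 566 genes higher and 89 lower (3.66% of genes called, 3.17% higher and 0.498% lower), and the Ly+Su minus Su difference 596 and 42 (3.57%, 3.33% and 0.235%). The test of the difference between them called 6 of 17878 genes (0.0336%; limma), with 1360 at an unadjusted p under 0.05, and 42 to 139 genes with an array left out, where each of the 8 arrays moved the count. Among the named genes Hspb1 lay at -0.68 with Imatinib and -0.47 with Su, Hsp90aa1 at -0.39 and -0.34, Fgg at -2.0 and -1.14, Fn1 at 0.26 and 0.37, Dntt at 1.26 and 1.07, and Alx4 at 2.38 and 2.91. Among the 6 with a known function was Angptl4, an inhibitor of lipoprotein lipase that fasting and fatty acids raise. Its levels were 2.31 and 2.26 in Ly+Imatinib and 4.23 and 3.99 in Ly+Su lungs, against 3.77 and 3.58 in Imatinib and 3.23 and 3.29 in Su lungs. It was 1.39 lower with Ly beside Imatinib and 0.85 higher beside Su, on the log2 scale, and the difference of these differences was -2.25 ± 0.17 (limma adjusted p = 0.0331). No gene was called for this difference when dim genes were not filtered or when the replicate number was a block. The Angptl4 levels of the untreated lungs were 4.80 and 3.28, so that the 2 arrays of that group differed by more than the arrays with Ly did within a group.

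Ly without a kinase inhibitor gave few calls, from 2 arrays a side against the 4 a side above. The counts of calls are therefore not alike in precision. In Ly against untreated lungs, both on slide 1, 4 of 18003 genes were higher and 4 lower (0.0444%; limma), with 1528 at an unadjusted p under 0.05, and 70 to 173 genes with any 1 of the 4 arrays left out. Of the 817 genes that rose on top of a kinase inhibitor, 522 lay above 0 here (63.9%, against 44.5% of all genes), with a median of 0.09 against 1.29. Of the 93 that fell, 72 lay below 0 (77.4%, against 55.5% of all genes), with a median of -0.13 against -0.45. One gene was called lower in both, Nmrk2, which lay at -2.88 with Ly alone (limma adjusted p = 0.022). Hspb1 lay at 0.10, Hsp90aa1 at -0.15, Hsp90b1 at -0.19, Fgg at -0.04, Fn1 at 0.49 and Tcf21 at -0.24, none of which passed. The test of the difference, Ly on top of a kinase inhibitor minus Ly alone, called 172 genes higher and 14 lower (1.03%, 0.955% higher and 0.0778% lower), among them Alx4, Psors1c2, Tlx2, 1700116B05Rik and Nppb. The first part of that difference runs between slides 3 and 2 and the second within slide 1. Slide and the presence of a kinase inhibitor therefore cannot be told apart in this test. That count of 186 was 65 without Ly+Imatinib 1, 70 without Su 1 and 88 without Su 2, and 329 without untreated 2 and 387 without Ly 2. For Hspb1 that test gave an adjusted p of 0.0637 and for Kcne3 of 0.0556 (limma).

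In irradiated lungs Ly on top of a kinase inhibitor called 696 genes higher and 50 lower of 20287 (3.68%, 3.43% higher and 0.246% lower; limma), and the total of 746 was 1168 without IR+Imatinib 2 and 464 without IR+Ly+Su 1. These 8 arrays are not among those above, and again the arrays with Ly (slide 6) and without (slide 5) lay on separate slides. Spots well above background made up 68.6% and 78.5% on the IR+Ly+Imatinib and 77.9% and 75.9% on the IR+Ly+Su arrays. The shares were 66.5% and 73.3% on the IR+Imatinib and 65.0% and 66.6% on the IR+Su arrays. What this contributes to the calls in irradiated lungs was not tested. Of the 812 risen genes that were tested there, 780 lay above 0 (96.1%, against 53.8% of all genes), with a median of 0.74, and 352 were called higher in both, which is 43.1% of the rises in unirradiated lungs and 50.6% of those in irradiated lungs. Of the 92 fallen genes tested there, 62 lay below 0 (67.4%, against 46.2% of all genes), with a median of -0.07, and none was called lower in both (limma). The rises there also followed the place of the spot, with 28 of 5282 genes (0.53%) in the area and 664 of 14842 (4.47%) in the rest. Alx4 lay at 2.16, Sox10 at 1.51 and Hif3a at 1.45 in irradiated lungs, each called (limma). Hspb1 lay at -0.07, Hsp90aa1 at -0.06, Hsp90b1 at -0.03, Hspa4l at -0.12, Fgg at 0.15, Kcne3 at 0.07 and Slc6a2 at 0.13, none called. For these falls the test of the difference between unirradiated and irradiated lungs passed for Kcne3 (limma adjusted p = 0.0413) and not for Hspb1 (0.164), Hsp90aa1 (0.269) or Slc6a2 (0.339). In all, that test called 27 of 20342 genes (0.133%), 19 higher (0.0934%) and 8 lower (0.0393%) in unirradiated lungs, of which Tlx2 (2.55 ± 0.22) and Tat (1.67 ± 0.18) are among the genes named above. That count was 3 without Ly+Imatinib 1, 666 without IR+Imatinib 1 and 487 without IR+Ly+Imatinib 2.

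**Figure D5:**
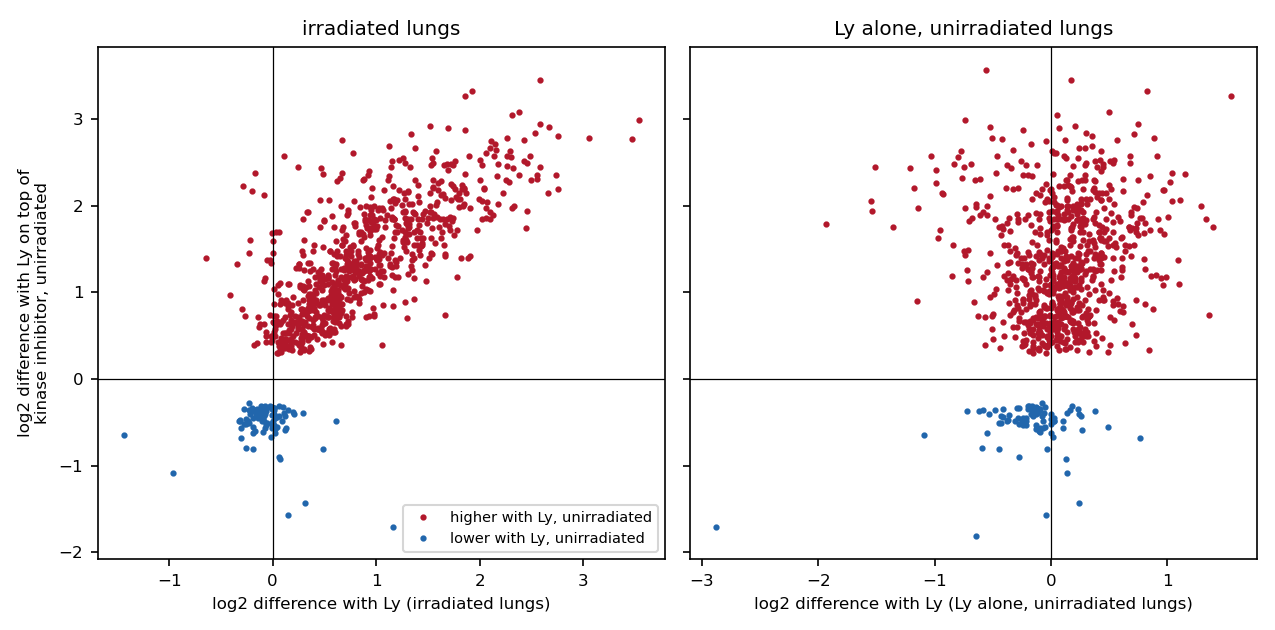
Log2 difference with Ly on top of a kinase inhibitor in unirradiated lungs (y axis) of the genes called there, against the difference in irradiated lungs (left x axis) and with Ly alone (right x axis). The genes called higher (red) lie mostly above 0 in irradiated lungs, where 780 of 812 do, and are spread around a median of 0.09 with Ly alone.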

How the data were processed

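Lung RNA was hybridised to 24 single-colour Agilent arrays, 2 per group. Per the file headers, the deposited intensity values were made by Feature Extraction 9.1.3.1 with background subtraction and detrending over the array, and were not scaled between arrays. Spots of a probe were averaged, 619 of 41174 probes with a spot marked as an outlier were dropped, and levels are log2 intensity relative to the 75th percentile of the array. In the authors' series table, the intensity differs by a constant only (ratios of 0.995 to 1.005). Genes were named through RefSeq for 22550 probes by accession, 6572 by symbol and 3068 by synonym, and 8365 kept the file's name. The probe with the highest mean stood for a gene, and a gene was tested when well above background on both arrays of at least 1 group. Arrays give no counts, so that their number limits the precision.

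limma 3.58.1 in R 4.3.3 (with the data.table package, version 1.17.8) fitted Ly and the kinase inhibitor over the 8 arrays, with 5 residual and 2.28 prior degrees of freedom, two-sided p-values and Benjamini-Hochberg adjustment at 0.05 over all genes tested. Ly alone was fitted over 12 unirradiated arrays, and the irradiated comparison over its own 8. On simulated data of this design with 17878 genes, 24 of 50 changes of 0.5 log2, 43 of 50 of 1 and 49 of 50 of 2 were called. Python 3 with pandas and matplotlib made tables and plots. A bound on a fold was taken against the lowest level well above background on each array. Named are the 12 highest and 12 lowest differences that do not overlap and agree between Imatinib and Su, up to 4 called members of each list, the 5 smallest p of each test of a difference, and 18 genes in every case, of which, as of the list members, some are not reported here. The members, lists and rules were chosen with earlier results of these data known. Cilium and receptor genes, examples from lists that did not pass, and the array area were chosen with their values in view. The labels do not say that replicates are separate animals, so p-values measure the spread between these samples, which may be technical. The alternatives tried are given at the end.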

Additional observations from a re-analysis of the deposited data

Results flagged for a closer look

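The tests of a difference between comparisons gave 15 results that passed among the 5 smallest p of each (limma, adjusted over all genes). Between the kinase inhibitors, the difference with Ly beside Imatinib minus that beside Su was 3.26 for TC1485374 (-0.12 against -3.39), 3.89 for AK042797, -2.25 for Angptl4 (-1.39 against 0.85), -3.14 for Prr29 and 1.72 for Zfp982 (-0.02 against -1.74). For TC1485374 the Su arrays, at -0.38 and -0.44, stood above all other unirradiated arrays, and for Zfp982 likewise, at -1.89 and -1.75. Among unirradiated arrays AK042797 was well above background only on the 2 of Ly+Imatinib, at -3.78 and -4.32, and Prr29 only on the 2 of Imatinib, at -4.94 and -4.56. Their values are fitted and measure no size. Of the pairs, AK042797 was at least 3.24-fold higher and Prr29 at least 1.7-fold lower in Ly+Imatinib than in Imatinib lungs.

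Between Ly on top of a kinase inhibitor and Ly alone, the difference was -3.96 for A930019D19Rik, 2.98 for Alx4, 1.83 for TC1454836, 2.87 for MGC54654 and 3.15 for AK081863. Slide and the presence of a kinase inhibitor cannot be told apart in these differences. A930019D19Rik, at -2.95 and -3.58 on the Ly arrays, was not well above background on the untreated arrays and was at least 4.06-fold higher with Ly. MGC54654 and AK081863 were at -4.36 and -4.46 and at -4.63 and -4.42 on the untreated arrays and not well above background on the Ly arrays, at least 1.97-fold and 1.82-fold lower with Ly. All 3 were not well above background on any of the 8 arrays with a kinase inhibitor, so that their fitted differences measure no size. Alx4 and TC1454836 were not above background on either Su array, and Alx4 on 1 of 2 Ly and 1 of 2 untreated arrays.

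Between unirradiated and irradiated lungs, the difference was -1.38 for Olfr651, 2.55 for Tlx2, 1.21 for Col25a1, 1.67 for Tat and 3.31 for 3830417A13Rik. With Ly on top of a kinase inhibitor Tlx2 lay at 2.38 in unirradiated and -0.17 in irradiated lungs, Col25a1 at 1.13 and -0.08, and Tat at 1.33 and -0.34. Neither 3830417A13Rik nor Olfr651 was well above background on any of the 8 unirradiated arrays with a kinase inhibitor, and their fitted differences measure no size. 3830417A13Rik was at -4.11 and -3.49 on the IR+Imatinib arrays, and at least 5.83-fold lower in IR+Ly+Imatinib lungs, while Olfr651 was above background on 3 of the 4 irradiated arrays with Ly and a kinase inhibitor and on none of the 4 without Ly. Tlx2 and Col25a1 were not above background on either Su array. Of the 15, Angptl4 was the one with its spot in the lower left area of the array.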

How the results depend on the processing

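For Ly on top of a kinase inhibitor in unirradiated lungs the total was 844 with quantile normalization, 974 scaled to the median, 824 with a replicate block and 686 to 1066 with an array left out, and 660 to 780 of the 910 were called in the same direction in those fits with an array left out. It was 310 when every array had to be above background, 2 with normexp background correction, 0 when the genes in the lower left area were fitted alone (543 at an unadjusted p under 0.05) and 0 when the genes above the median level were (1141), the last pair added after seeing the data. With normexp the test between the kinase inhibitors called 4822 genes. That test called 0 with no filter (4694 at an unadjusted p under 0.05) and 0 with the replicate block (1348), and 42 to 139 with an array left out. In irradiated lungs the total was 3 for the lower left area and 0 above the median level (750 at an unadjusted p under 0.05), and 464 to 1168 with an array left out. Unirradiated minus irradiated gave 13 with quantile normalization, 14 with the replicate block and 3 to 666 with an array left out. Ly alone gave 70 to 173, and the difference from it 65 to 387. Same-numbered arrays did not deviate together (correlations of -0.158 to 0.232 over 6 pairs of groups), so the numbers were not taken as pairs. With an array left out 1 group has 1 sample, assumed to vary like the others. Of 44 named genes that passed, normexp kept none and turned 6: Extl1 (0.68), Ifit1 (0.03), Nmrk2 (0.71), Rimkla (0.72), Sdsl (0.55) and Slc7a3 (0.37). In the fit over all 24 arrays Fgg, Fn1, Hsp90b1, Ifit1, Pax5, Procr, Rimkla, Sdsl, Slc6a2, Slc7a3 and Tcf21 lost the call. Normexp moved Hspb1 to -0.80, Hsp90aa1 to -0.64 and Fn1 to 0.15. The cause was not tested. Signal over background limits the dim genes.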
